A study of Homo sapiens with 6 samples.

Results

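The 10 genes described here carry, sense and interconvert retinoids in human cells: CRABP2, RARA, RARG, RXRA, RXRB, RDH10, DHRS9, DHRS3, RDH11 and TGM2. They were taken by gene symbol, and all 10 were found among the 17513 genes of the deposited tables. The list was drawn up because an earlier look at these data had shown a lower CRABP2, so its difference is given as a description, nothing is read from a call that rests on it, and the question is whether the other 9 joined it.

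The 6 libraries hold polyadenylated RNA of macrophages made from THP1, a leukemia line of monocytic origin. In 3 of them the macrophages had spent 48 h in medium taken from KYSE150, a squamous cancer line of the human esophagus, with the hairpin shSPP1#2 against SPP1 (osteopontin), and these are called shSPP1#2 medium. The other 3, called shNC medium, had spent 48 h in medium of KYSE150 cells with the control hairpin shNC. The study thus rests on 1 hairpin, 1 tumor line and 1 monocytic line. The labels do not say whether replicates were separate cultures, and p-values reflect the spread among these 6 libraries, which could be technical. The hairpin acted in the KYSE150 cells, whose RNA was not analysed here, so the knockdown was not checked.

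Retinol enters cells from blood or from lipoproteins and is oxidized to retinaldehyde and then to retinoic acid, and other enzymes run the first step backwards or break retinoic acid down. CRABP2 carries retinoic acid to its nuclear receptors. These are the RAR proteins, which bind DNA paired with an RXR protein and turn on target genes when the acid is bound. In myeloid cells, retinoic acid is best known for driving maturation of leukemic promyelocytes, and RXR also pairs with the lipid-sensing PPAR and LXR receptors of macrophages.

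The sample labels name KYSE150 itself, so the cells were checked by their markers. Of 15 macrophage genes, 14 reached 1 FPKM (fragments scaled by transcript length and library size by the authors) in every library, and MRC1 stayed at or below 0.03 FPKM. The summed level of the 15 was 2568 to 2640 FPKM in shSPP1#2 medium and 2630 to 2834 FPKM in shNC medium. Of 18 squamous epithelial genes, 15 were present among the deposited genes. Of these, 13 stayed under 1 FPKM in every library, KRT5, KRT14 and TP63 among them. These 13, set apart by that level, summed to 0.69 to 1.18 FPKM in shSPP1#2 medium and 0.80 to 0.96 FPKM in shNC medium. S100A2 and PERP reached 1 FPKM in every library. The whole squamous list summed to 26.68 to 29.73 FPKM in shSPP1#2 medium and 28.11 to 28.86 FPKM in shNC medium. Most of this was PERP, at 23.45 to 25.73 FPKM in shSPP1#2 medium and 24.7 to 25.56 FPKM in shNC medium. Of 7 fibroblast genes, 2 reached 1 FPKM in every library, and the list summed to 20.96 to 22.99 FPKM in shSPP1#2 medium and 20.98 to 24.08 FPKM in shNC medium. Of its 4 tested genes, 1 was higher and 3 were lower by sign, and groups overlapped for all 4. COL1A1, the most abundant at 16.27 to 19.07 FPKM, had a log2 fold change of 0.06 (edgeR adjusted p = 0.886). PDGFRB had one of -0.11 (edgeR adjusted p = 0.870). COL1A2 and COL3A1, under 1 FPKM throughout, had log2 fold changes of -0.85 and -1.42 (edgeR adjusted p = 0.691 and 0.512). They rested on 15.0 to 82.1 and 7.0 to 44.0 estimated counts a library. Total estimated counts per library ran from 18113591 to 20626346.

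CRABP2, the retinoic acid carrier, was the member that stood apart most. Its level was 52.0, 58.9 and 52.8 FPKM in shSPP1#2 replicates 1, 2 and 3, against 63.6, 69.3 and 67.4 FPKM in shNC replicates 1, 2 and 3. All 3 libraries of shSPP1#2 medium lay below all 3 of shNC medium, and shSPP1#2 replicate 2 came closest to the other group. The means were 54.55 ± 3.797 FPKM in shSPP1#2 medium and 66.8 ± 2.87 FPKM in shNC medium (SD, n = 3 each). Behind these levels stood 991, 1104 and 996 estimated counts in shSPP1#2 medium and 1206, 1162 and 1286 in shNC medium. In the edgeR fit over all genes, where a negative value means lower in shSPP1#2 medium, the log2 fold change was -0.29 (SE 0.060, 95% interval -0.42 to -0.17). On a linear scale this is 0.816-fold. Of 10635 genes with a mean of at least 2 log2 CPM (counts scaled to library size), it ranked 47th from the lowest fold change. It did not pass the test over all genes (edgeR adjusted p = 0.142). As CRABP2 was picked for being lower in these libraries, its gap, interval and rank describe its size and test nothing.

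CRABP2 (Entrez 1382) is annotated by GENCODE v29 (GRCh38) at 156699606 to 156705816 of chromosome 1, on the minus strand, and no exon of another gene covers its 1100 exonic bases. The 300 bases around its RefSeq start (GRCh38.p14, chr1:156705735-156706034, minus strand, 250 bases before and 50 after the start) are shown because RAR and RXR act through paired hexamers of the form AGGTCA or its close relatives. GGGTCA and AGTTCA were searched beside it, and so was GGTTCA. Capitals mark the one match to these 4 hexamers, on either strand, in this window.

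CRABP2 promoter: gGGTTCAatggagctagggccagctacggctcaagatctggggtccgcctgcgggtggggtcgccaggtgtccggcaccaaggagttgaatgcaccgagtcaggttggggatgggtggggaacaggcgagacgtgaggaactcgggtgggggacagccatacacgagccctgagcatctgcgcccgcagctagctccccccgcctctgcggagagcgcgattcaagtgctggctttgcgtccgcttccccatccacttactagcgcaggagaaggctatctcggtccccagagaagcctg

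That match, GGTTCA, begins at base 2 of the window. The table of promoters holds 17 windows for 8 of the 10 members, and 6 of the 17 contain at least 1 of these 4 hexamers, beside 38.6% of all 35116 windows of the same length. Pairs of AGGTCA in the same direction, with 5, 2 or 1 bases between them, were found in 0 of the 17. Of all windows, 0.0057% hold the pair with 5 bases between, 0.00285% that with 2 and 0.0228% that with 1. Matches to letters describe the sequence and say nothing of binding.

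Transcript length and GC content were set beside the CRABP2 value. Its longest annotated transcript has 1033 bases, where the median over tested genes was 3685, and its GC content is 55.8%, where the median was 48.5%. Genes of its length and GC content were lower in shSPP1#2 medium by a trend of -0.07 on the log2 scale. With each library's trend over length and GC content removed, an alternative added after the data were seen, the log2 fold change of CRABP2 was -0.23; length and GC content were not separated. Of 14 tested macrophage markers, 5 had a positive and 9 a negative log2 fold change, from -0.23 for CD163 to 0.13 for MSR1. Groups did not overlap for 3 of the 14, all lower in shSPP1#2 medium, where 5.5% of all genes did so in that direction: FCER1G (346 to 374 FPKM, against 378 to 457 FPKM in shNC medium), AIF1 (38.5 to 40.3 against 42.0 to 48.9 FPKM) and CD163 (1.33 to 1.39 against 1.51 to 1.69 FPKM). None of the 3 passed the edgeR test (adjusted p = 0.575, 0.601 and 0.741). The part of these markers in the CRABP2 value was not tested. In bulk RNA, fewer cells of a type and less RNA per cell cannot be told apart.

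**Figure D1:**
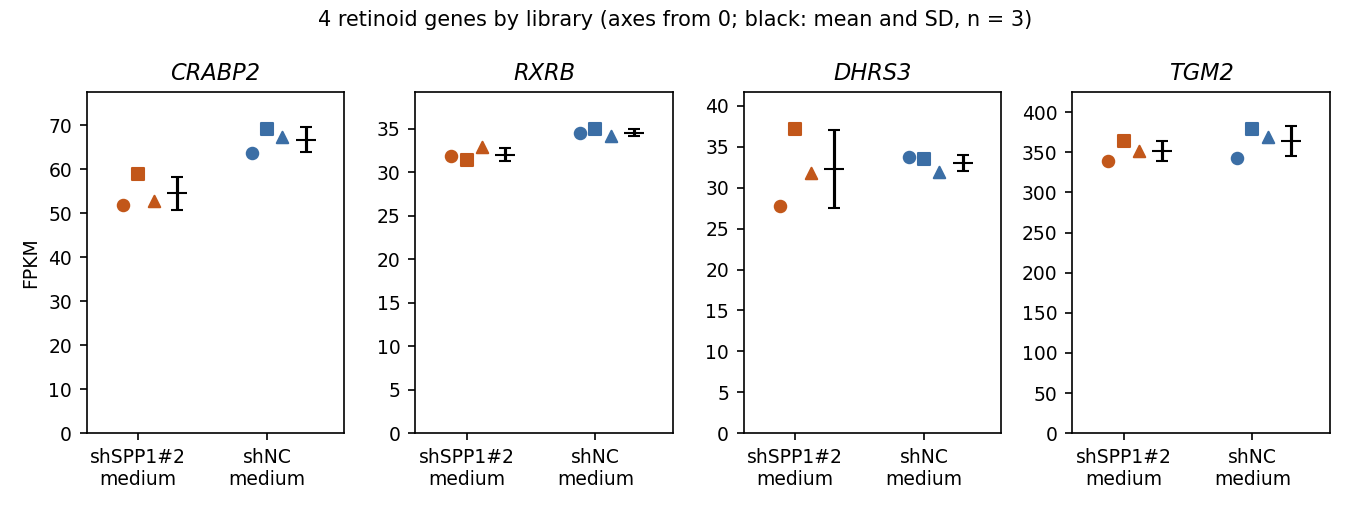
FPKM (linear axis from 0) of CRABP2, RXRB, DHRS3 and TGM2 in each library, with circles, squares and triangles for replicates 1, 2 and 3 and black marks for the mean and SD of 3 libraries. The groups lie apart for CRABP2 and, by a smaller margin, for RXRB, whereas DHRS3 and TGM2 overlap.

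The retinoic acid receptors showed no such gap. RARA, the RAR that is fused to PML in promyelocytic leukemia, measured 17.2, 18.4 and 17.1 FPKM in shSPP1#2 medium and 16.8, 18.8 and 17.6 FPKM in shNC medium. Its groups overlapped fully, and its log2 fold change was -0.03 (95% interval -0.15 to 0.09, edgeR adjusted p = 0.962). RARG, the RAR best known from skin, measured 11.8, 13.3 and 11.8 FPKM in shSPP1#2 medium and 12.5, 11.6 and 11.5 FPKM in shNC medium, with a log2 fold change of 0.05 (-0.09 to 0.19, edgeR adjusted p = 0.939). RARA was the more abundant of the pair in every library, by 1.39 to 1.46 times in shSPP1#2 medium and 1.35 to 1.62 times in shNC medium. Exons of other genes, chiefly the antisense RARA-AS1, cover 17.9% of the exonic bases of RARA, so its reads there are uncertain where counting did not use strand.

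Of the retinoid X receptors, which pair with RAR, LXR and PPAR proteins, RXRA overlapped between the groups and RXRB did not. RXRA measured 26.3, 26.2 and 24.8 FPKM in shSPP1#2 medium and 24.2, 26.2 and 25.6 FPKM in shNC medium, with a log2 fold change of 0.02 (95% interval -0.08 to 0.12, edgeR adjusted p = 0.973). RXRB measured 31.8, 31.4 and 32.9 FPKM in shSPP1#2 medium and 34.5, 35.01 and 34.1 FPKM in shNC medium. Its highest library in shSPP1#2 medium lay below its lowest in shNC medium, and its spread was the narrowest of the 10 members, at 2.38% and 1.28% of the mean. The log2 fold change was -0.09 (-0.18 to -0.00012), a difference of -6.17%, and did not pass the test over all genes (edgeR adjusted p = 0.729). RXRB (chromosome 6, 33193588 to 33200688, minus strand, GENCODE v29) shares 244 of its 3920 exonic bases with SLC39A7 on the other strand, whose log2 fold change was -0.10 (edgeR adjusted p = 0.706). The part of shared reads in the RXRB value was not tested.

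Taken per length, RXR transcripts outnumbered RAR transcripts. The sum of RXRA and RXRB over the sum of RARA and RARG in FPKM was 2.01, 1.82 and 1.99 in shSPP1#2 medium and 2.00, 2.01 and 2.05 in shNC medium. These ratios overlapped, with shSPP1#2 replicate 2 the lowest. RXRB over RXRA was 1.211, 1.199 and 1.324 in shSPP1#2 medium and 1.426, 1.336 and 1.334 in shNC medium. The groups did not overlap, but only by 1.324 against 1.334, and the ratio reuses the RXRB values given above.

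**Figure D2:**
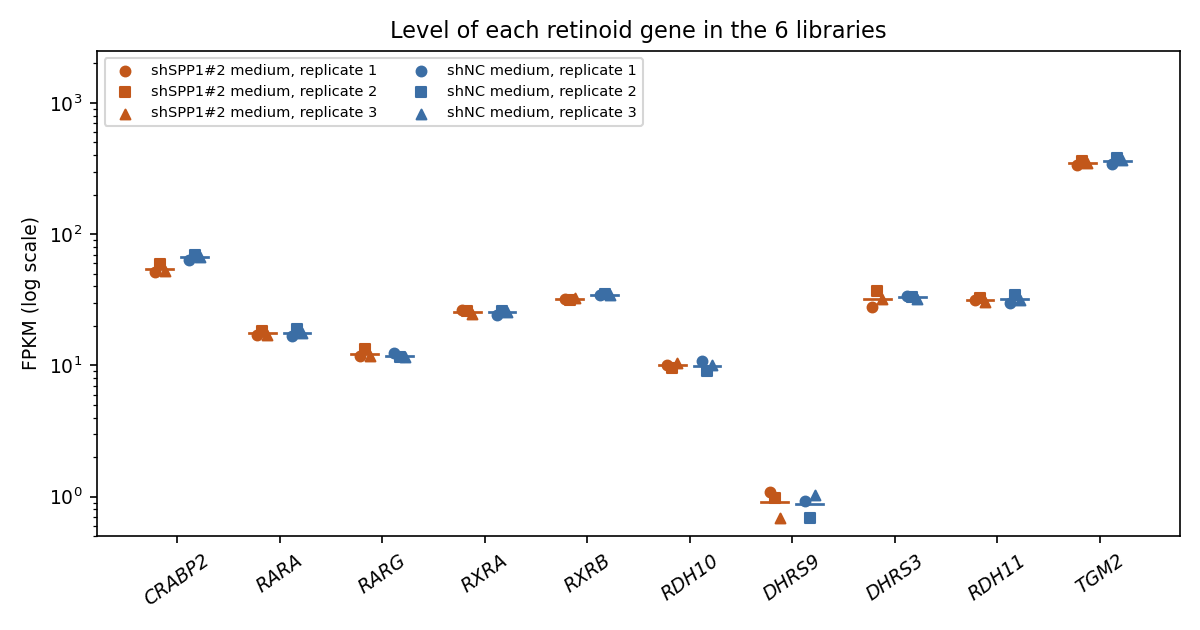
FPKM on a log axis of the 10 members in each library, with symbols for replicates 1, 2 and 3 and a line at each group's mean. TGM2 lies highest at 339 to 380 FPKM and DHRS9 lowest at 0.69 to 1.08 FPKM, and on this scale the groups lie visibly apart for CRABP2.

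The enzymes that interconvert retinol and retinaldehyde overlapped between the groups. RDH10, the main enzyme that oxidizes retinol, measured 10.02, 9.60 and 10.40 FPKM in shSPP1#2 medium and 10.7, 9.15 and 10.1 FPKM in shNC medium, with a log2 fold change of -0.0034 (95% interval -0.13 to 0.12, edgeR adjusted p = 0.998). DHRS9, a retinol dehydrogenase also used as a marker of human regulatory macrophages, was near the detection limit. It measured 1.08, 0.98 and 0.69 FPKM in shSPP1#2 medium and 0.93, 0.69 and 1.03 FPKM in shNC medium, from 19.0 to 34.0 estimated counts a library. Its groups overlapped, with a log2 fold change of 0.04 (95% interval -0.52 to 0.60, edgeR adjusted p = 0.991). At this depth its interval held differences as large as that of CRABP2, which itself did not pass the test (edgeR adjusted p = 0.142).

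DHRS3 and RDH11 reduce retinaldehyde back to retinol, and DHRS3 is itself a gene that retinoic acid induces. DHRS3 measured 27.7, 37.2 and 31.8 FPKM in shSPP1#2 medium and 33.7, 33.5 and 31.9 FPKM in shNC medium. The shSPP1#2 libraries held both the lowest and the highest of the 6 values, and their SD of 4.77 FPKM stood beside one of 0.984 FPKM in shNC medium (n = 3 each). The log2 fold change was -0.07 (95% interval -0.21 to 0.07, edgeR adjusted p = 0.894). It rested on single libraries: it was -0.17 without shSPP1#2 replicate 2 (edgeR adjusted p = 0.393) and -0.0040 without shSPP1#2 replicate 1 (edgeR adjusted p = 0.999), within a range of 0.393 to 0.9999 over all alternatives. RDH11 measured 31.3, 32.8 and 30.4 FPKM in shSPP1#2 medium and 30.1, 34.3 and 31.6 FPKM in shNC medium, with a log2 fold change of -0.03 (-0.14 to 0.09, edgeR adjusted p = 0.963). Exons of other genes cover 6.27% of the exonic bases of RDH11 (AL049779.1, on the same strand) and 5.23% of those of RDH10 (RDH10-AS1, on the other strand), so reads there are uncertain. DHRS3 over RDH10, the reducing over the oxidizing enzyme, was 2.77, 3.88 and 3.06 in shSPP1#2 medium and 3.15, 3.66 and 3.17 in shNC medium, and overlapped.

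TGM2, the protein-crosslinking transglutaminase that retinoic acid induces in myeloid cells and that also serves as a marker of alternatively activated human macrophages, was the most abundant member. It measured 339, 364 and 351 FPKM in shSPP1#2 medium and 343, 380 and 369 FPKM in shNC medium, at the 99.0th percentile of genes by level. The groups overlapped, and the log2 fold change was -0.05 (95% interval -0.16 to 0.05, edgeR adjusted p = 0.895). Leaving out shNC replicate 1 gave -0.10 (edgeR adjusted p = 0.727) and leaving out shNC replicate 2 gave -0.02 (edgeR adjusted p = 0.9999), within 0.534 to 0.9999 over all alternatives. TGM2 (chromosome 20, 38127387 to 38166578, minus strand, GENCODE v29) shares 394 of its 8036 exonic bases with RPRD1B on the other strand.

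By level over the 6 libraries, the order was TGM2 at a mean of 358 FPKM, CRABP2 at 60.7, RXRB at 33.3, DHRS3 at 32.7, RDH11 at 31.8, RXRA at 25.5, RARA at 17.7, RARG at 12.1, RDH10 at 9.995 and DHRS9 at 0.90 FPKM. RXRB, DHRS3 and RDH11 could not be ordered, since their ranges over the libraries overlapped. The highest RXRA library, at 26.3 FPKM, lay just below the lowest DHRS3 library, at 27.7 FPKM, and no other neighbours overlapped.

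Of the 9 members other than CRABP2, 0 passed the edgeR test at an adjusted p below 0.05, as did 0 of all 13555 tested genes (0%). CRABP2 did not pass it either (edgeR adjusted p = 0.142), so 0 calls cannot show that none of the 9 differed by as much. DESeq2 called 13 of 4264 genes (0.305%) and none of the 9, but its independent filter left RARG, RDH10 and DHRS9 out of the 4264. Without that filter it called 12 of 17480 (0.0686%), again none of the 9. Limma-voom called 1 of 13555 genes (0.00738%) and none of the 9. At an unadjusted edgeR p below 0.05 there was 1 of the 9, RXRB, which was lower, where 3.39% of all genes were lower, 3.45% were higher and 6.85% (928 genes) differed in either direction. RXRB lay at the threshold, with an unadjusted edgeR p of 0.0497. Over the 18 alternatives its unadjusted p, by the test of each setting, ran from 0.0106 to 0.1505. It was above 0.05 with each library left out. Among the 9, groups did not overlap for RXRB alone, where 5.5% of all genes had no overlap and were lower, 5.63% had none and were higher, and 11.1% had none in either direction. A count of 1 in 9 is close to the share over all genes. CRABP2, picked for its difference in these libraries, is left out of the counts above. With CRABP2 put back, 7 of the 10 members had a negative and 3 a positive log2 fold change, where 50.1% of all genes were negative. The 7 thus hold CRABP2, whose sign was known when it was picked. They also hold RDH10, at -0.0034, whose sign reversed in 7 of 18 alternatives. The median was -0.03 over the 10 members, -0.03 over the 9 without CRABP2 and -0.00030 over all tested genes. With DHRS9 set aside, the 95% intervals of the other 8 lay between -0.21 and 0.19 on the log2 scale. The differences between members were not tested.

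**Figure D3:**
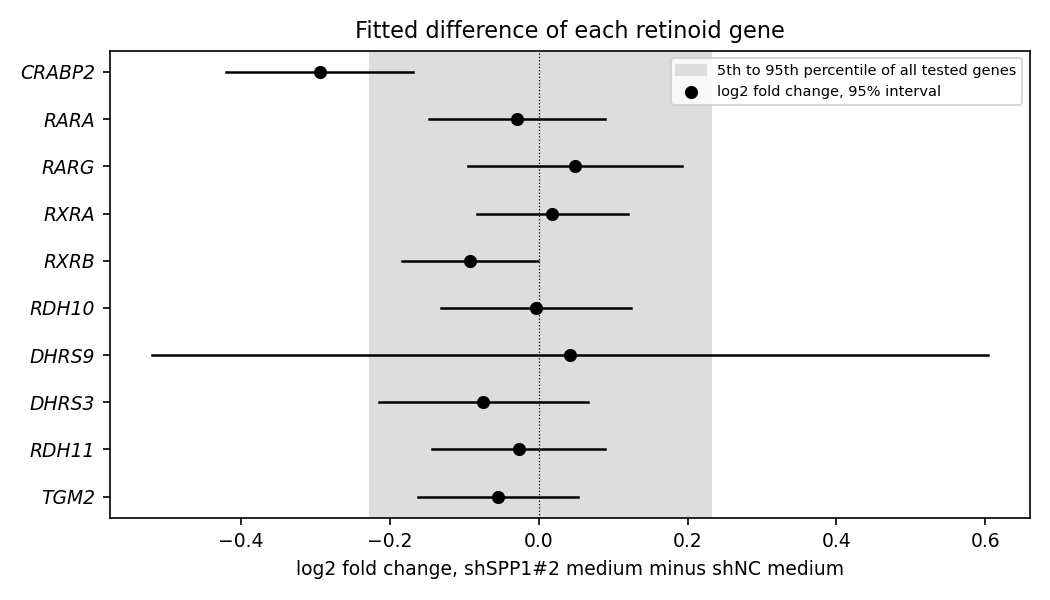
Log2 fold change of each member, shSPP1#2 medium minus shNC medium, with its 95% interval from the edgeR fit; the grey band spans the 5th to 95th percentile of all tested genes (-0.23 to 0.23). CRABP2 is the one member whose point lies outside the band.

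Other genes of retinoid handling were grouped by role in 5 lists of 81 genes, of which 74 were present among the deposited genes and 52 were abundant enough to test. Of these 52, 30 had a positive and 22 a negative log2 fold change, with a median of 0.02. None passed the edgeR test (smallest adjusted p = 0.601), with 5 at an unadjusted p below 0.05, or 9.62%, beside 6.85% of all genes. In log2 CPM, groups did not overlap for 9 of the 52 (17.3%, beside 11.1% of all genes), 3 of them higher (NCOA2, EP300 and NR4A2) and 6 lower (HDAC3, STRA6, RDH5, PPARA, NR4A1 and CEBPE). Limma-voom called 0 of them, and so did DESeq2 with and without its independent filter. That filter kept 4264 of 17480 genes and left out RARG, at 537 to 691 estimated counts a library. Those of the 52 with lower mean counts than RARG were therefore not open to a call under it.

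Among other carriers and uptake genes, 0 of 9 tested passed, with 7 higher and 2 lower by sign. FABP5, a fatty acid-binding protein that can also carry retinoic acid, was far more abundant than CRABP2, at 744, 662 and 707 FPKM in shSPP1#2 medium and 791, 714 and 653 FPKM in shNC medium. Its groups overlapped, with a log2 fold change of -0.04 (95% interval -0.16 to 0.09, edgeR adjusted p = 0.950); FABP5 has 14 annotated pseudogenes, so its estimated counts are uncertain. CRABP2 over FABP5 was 0.070, 0.089 and 0.075 in shSPP1#2 medium and 0.080, 0.097 and 0.103 in shNC medium. LPL, the lipoprotein lipase that also frees retinyl esters from lipoproteins, measured 278 to 314 FPKM in shSPP1#2 medium and 281 to 297 FPKM in shNC medium (log2 fold change 0.04, edgeR adjusted p = 0.916). STRA6, the retinol uptake receptor and another gene that retinoic acid induces, was low, at 3.30, 3.42 and 3.50 FPKM in shSPP1#2 medium and 3.69, 3.62 and 3.91 FPKM in shNC medium. Its groups did not overlap, and its log2 fold change of -0.15 did not pass (-0.34 to 0.05, edgeR adjusted p = 0.824). CRABP1, the other cellular retinoic acid-binding protein, averaged 0.21 FPKM in shSPP1#2 medium and 0.29 FPKM in shNC medium and was not tested.

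Of other metabolic enzymes, 0 of 13 tested passed. The most abundant was CYP26B1, which breaks retinoic acid down and is induced by it, at 109, 114 and 107 FPKM in shSPP1#2 medium and 112, 102 and 114 FPKM in shNC medium. Its groups overlapped, with a log2 fold change of 0.0073 (95% interval -0.10 to 0.11, edgeR adjusted p = 0.992). ALDH1A2 was the one enzyme of retinoic acid synthesis that was tested, at 2.89 to 3.18 FPKM in shSPP1#2 medium and 2.96 to 3.32 FPKM in shNC medium (log2 fold change -0.07, edgeR adjusted p = 0.939); ALDH1A1 and ALDH1A3 averaged 0.058 and 0.023 FPKM over the 6 libraries. The lipase PNPLA2 measured 46.7 to 48.5 FPKM in shSPP1#2 medium and 44.9 to 52.8 FPKM in shNC medium (edgeR adjusted p = 0.971). CES1, a carboxylesterase that hydrolyzes retinyl esters, measured 26.9, 28.6 and 28.2 FPKM in shSPP1#2 medium and 27.9, 33.9 and 31.5 FPKM in shNC medium, with a log2 fold change of -0.16 (-0.30 to -0.03, edgeR adjusted p = 0.633). ADH5, a broad alcohol dehydrogenase, measured 24.1 to 25.9 FPKM in shSPP1#2 medium and 25.8 to 27.9 FPKM in shNC medium (log2 fold change -0.11, edgeR adjusted p = 0.696). Both have annotated pseudogenes, 2 for CES1 and 3 for ADH5.

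**Figure D4:**
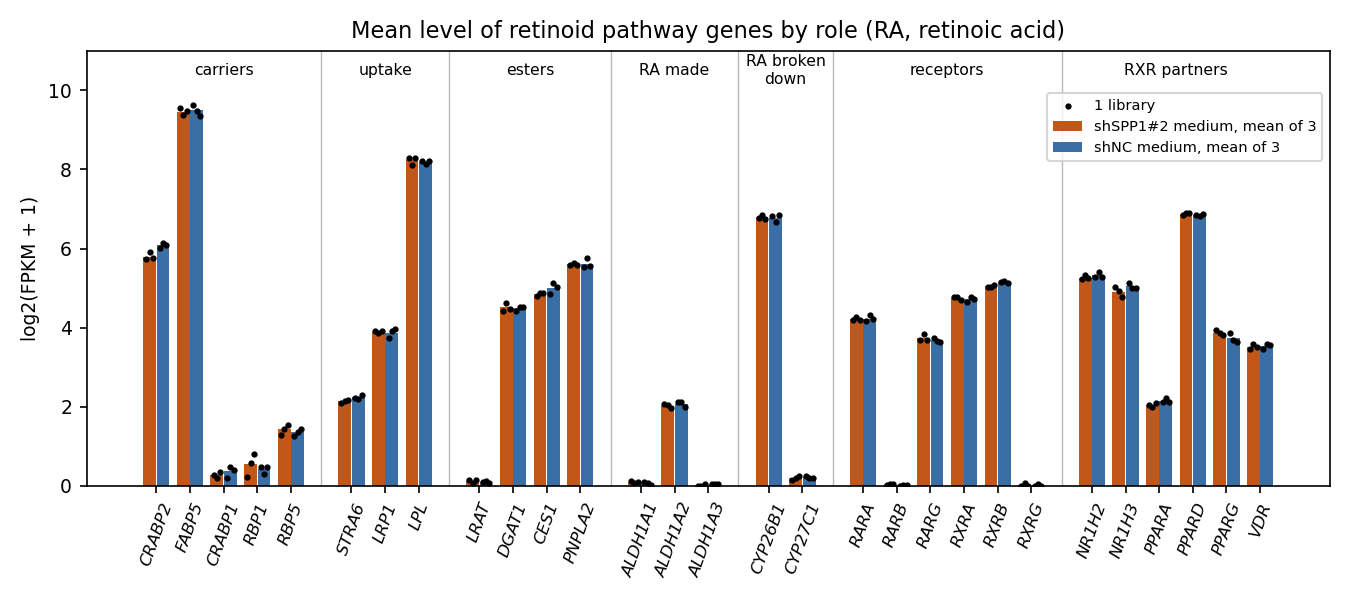
Level of retinoid pathway genes by role, as log2(FPKM + 1), with bars for the mean of 3 libraries in shSPP1#2 medium and in shNC medium and a point for each library. FABP5, LPL, PPARD and CYP26B1 are the most abundant shown, and LRAT, ALDH1A1, ALDH1A3, RARB and RXRG lie near 0.

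Among the other receptors, RARB and RXRG had at most 2 estimated counts in any library and were not tested. RARB is the classical gene that retinoic acid induces through RAR, and here it was at 0.02, 0.04 and 0.04 FPKM in shSPP1#2 medium and 0, 0.02 and 0.02 FPKM in shNC medium. Receptors that pair with RXR gave 0 of 9 tested. PPARD, the PPAR of broad expression, measured 114 to 118 FPKM in shSPP1#2 medium and 112 to 117 FPKM in shNC medium (log2 fold change 0.02, edgeR adjusted p = 0.971). NR1H2, an LXR that senses oxysterols, measured 36.5 to 38.9 FPKM in shSPP1#2 medium and 37.8 to 41.4 FPKM in shNC medium (log2 fold change -0.06, edgeR adjusted p = 0.886).

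Coregulators, which the receptors recruit to silence or activate genes, gave 0 of 12 that passed the test over all genes. At an unadjusted p below 0.05 there were 3 of the 12, beside 6.85% of all genes, and this count ran from 0 without shNC replicate 2 to 4 over the alternatives. The deacetylase HDAC3, part of the corepressor complex, measured 30.7, 30.5 and 30.7 FPKM in shSPP1#2 medium and 32.6, 35.1 and 32.6 FPKM in shNC medium. Its groups did not overlap, and its log2 fold change was -0.14 (95% interval -0.25 to -0.04, edgeR adjusted p = 0.601). The coactivator NCOA2 measured 2.76, 2.70 and 2.73 FPKM in shSPP1#2 medium and 2.57, 2.2 and 2.38 FPKM in shNC medium, with a log2 fold change of 0.20 (0.05 to 0.35, edgeR adjusted p = 0.618). The acetyltransferase EP300 measured 17.5, 17.6 and 17.5 FPKM in shSPP1#2 medium and 15.1, 15.6 and 17.2 FPKM in shNC medium (log2 fold change 0.13, 0.02 to 0.23, edgeR adjusted p = 0.633). For both coactivators every library of shSPP1#2 medium lay above every library of shNC medium. NCOA3, the most abundant coregulator, overlapped, at 36.9 to 41.0 FPKM in shSPP1#2 medium and 34.6 to 38.2 FPKM in shNC medium (edgeR adjusted p = 0.732).

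Genes known to respond to retinoic acid, beside the members, gave 0 of 13 tested, with 9 higher and 4 lower by sign and a median log2 fold change of 0.03. The adhesion molecule ICAM1 was the most abundant, at 150, 163 and 156 FPKM in shSPP1#2 medium and 155, 163 and 160 FPKM in shNC medium (log2 fold change -0.03, 95% interval -0.13 to 0.07, edgeR adjusted p = 0.944). Groups did not overlap for 2 of the 13, both lower, STRA6 above and CEBPE, a granulocyte transcription factor. Of all tested genes, 5.5% had no overlap and were lower, and 11.1% had none in either direction. CEBPE was near the detection limit, at 0.55, 0.65 and 0.60 FPKM in shSPP1#2 medium and 0.73, 1.06 and 0.72 FPKM in shNC medium (log2 fold change -0.47, -1.13 to 0.20, edgeR adjusted p = 0.845). TGM2, ICAM1 and CYP26B1, which were far more abundant, had groups that overlapped.

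**Figure D5:**
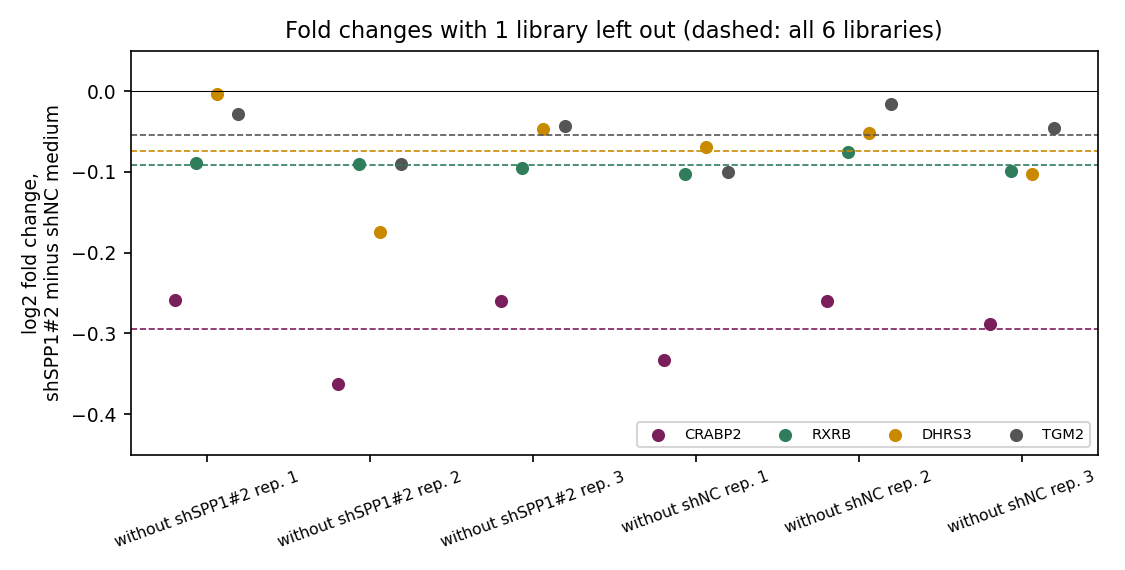
Log2 fold change, shSPP1#2 medium minus shNC medium, of CRABP2, RXRB, DHRS3 and TGM2 with each library left out in turn; dashed lines give the value with all 6 libraries. CRABP2 stays between -0.36 and -0.26 and RXRB between -0.10 and -0.07, while DHRS3 runs from -0.17 to -0.0040.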

How the data were processed

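The authors deposited estimated counts and FPKM values per gene, 1 column per library. Per the submitters' processing notes, the tools were HISAT2 2.0.4, Bowtie2 2.2.5 and RSEM, with GRCh38.p13 as the build. Strand use, annotation and filters in counting were not given in the sources used here. For the tests, each estimated count was rounded to a whole number. Stray text lines in the FPKM file (20) were dropped.

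Genes were filtered with filterByExpr (13555 of 17513 kept), scaled by TMM and fitted in edgeR 4.0.16 under R 4.3.3. Differences (shSPP1#2 minus shNC) were tested by its quasi-likelihood test, with Benjamini-Hochberg adjustment over all tested genes and calls at an adjusted p below 0.05. The biological coefficient of variation was 4.54%, and log2 fold changes had a median standard error of 0.0645 among genes averaging at least 2 log2 CPM. The members and lists were chosen with earlier results of these data known. All members are named. From each other list, the 2 most abundant genes and those at an unadjusted p below 0.05 are named by rule, and KRT5, KRT14, TP63, S100A2, PERP, MRC1, MSR1, COL1A1, COL1A2, COL3A1, PDGFRB, STRA6, CRABP1, LRAT, ALDH1A1, ALDH1A2, ALDH1A3, RDH5, RDH13, RDH10-AS1, AL049779.1, PPARA, NR4A1, NR4A2, CEBPE, RARB, RXRG, FCER1G, AIF1, CD163, SLC39A7 and RPRD1B were added after their values were seen. Within groups, libraries differed beyond sampling noise (chi-square per degree of freedom 3.09 to 4.16), so none was taken as a library deposited again; separate preparations of 1 culture could differ as much. Coordinates came from GENCODE v29 (GRCh38) and promoters from RefSeq (GRCh38.p14). Alternatives were other scalings and low-count filters, a replicate block, DESeq2 1.42.0, limma-voom and limma 3.58.1 on log2(FPKM + 1) and log2(FPKM + 0.1), removal of length and GC trends (mgcv 1.9.3) and each library left out in turn. Plots used matplotlib 3.10.9.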

Additional observations from a re-analysis of the deposited data

How the results depend on the processing

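CRABP2 kept its negative direction in all 18 alternatives, with log2 fold changes of -0.36 to -0.26 with 1 library left out and -0.30 to -0.23 under the other settings. It was -0.29 without a low-count filter, -0.30 with a replicate block, -0.29 with DESeq2 and -0.36 without shSPP1#2 replicate 2. In these 4 settings 1 member was called, and otherwise 0 (0 to 1 with 1 library left out); the 1 was CRABP2, chosen for its difference in these libraries, so the call supports nothing. RXRB, DHRS3 and TGM2 also kept their sign in all 18 and were called in none. RDH10, at -0.0034, turned to 0.0049 on log2(FPKM + 1) with and without a filter, 0.0056 on log2(FPKM + 0.1) and 0.00054 once length and GC trends were taken out. With single libraries left out, RARA ran from -0.074 to 0.023, RARG from -0.020 to 0.084, RXRA from -0.020 to 0.054, RDH10 from -0.054 to 0.045, RDH11 from -0.075 to 0.031 and DHRS9 from -0.12 to 0.24. Over all genes, edgeR called 18 without a low-count filter, 59 with the replicate block, 3 with that trend taken out and 1 to 10 with 1 library left out. DESeq2 called 13, and 12 without its independent filter, an alternative that, like the length and GC correction, was chosen after the data were seen; limma-voom and limma on log2(FPKM + 0.1) called 1 each. The lists of other retinoid genes had 0 calls throughout. Same-numbered replicates deviated together with correlations of 0.22, 0.294 and 0.0924. Replicates 1 and 2 of shSPP1#2 medium each matched the shNC replicate of the same number best, whereas replicate 3 matched shNC replicate 1. The main fit did not take the shared numbers as pairs, and these values do not settle whether they were. With the numbers taken as pairs, in the replicate block, edgeR called 59 genes over all genes in place of 0. Depth limits DHRS9 most.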

Other observations

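The 4 genes whose pattern over the 6 libraries was most like that of CRABP2 were ACD, METTL1, KIAA1522 and CCL3, by the Euclidean distance of log2 CPM centred on each gene's mean, among the 10635 genes that averaged 2 log2 CPM or more. Their distances were 0.1004, 0.104, 0.106 and 0.108 on the log2 scale. ACD encodes a telomere-binding protein, METTL1 a tRNA methyltransferase and CCL3 a chemokine with near-identical copies in the genome, so its estimated counts are uncertain. Their log2 fold changes, shSPP1#2 medium minus shNC medium, were -0.30, -0.23, -0.32 and -0.21. As in CRABP2, replicate 2 was the highest library of shSPP1#2 medium in all 4. These genes were found by a search over all genes for that pattern, so their values describe the match and test nothing.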
